A study of Mus musculus with 4 samples.

Results

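The integrated stress response genes described here were the transcription factor gene *Atf4* and 9 genes long described as its targets or partners, *Atf5*, *Ddit3*, *Trib3*, *Chac1*, *Asns*, *Cebpb*, *Cebpg*, *Nupr1* and *Ppp1r15a*. They were given by name, in a choice made with earlier results of these data known, so comparisons with all genes are descriptions only. They make up 10 of the 39179 genes listed for each library. All 10 passed the filter on low counts that left 11483 genes for testing. RNA-seq counts were compared between parental B16F1 control cells, a mouse melanoma cell line, and tumor repopulating cells (TRCs), the cells of that same line that form spheroids from single cells in soft fibrin gel. The TRCs were taken on day 5 from gels of 90 Pa stiffness, most seeded cells do not survive in such gels, and the labels name no genetic change in either group. Each group had 2 libraries, numbered 1 and 3 in both. All of them came from 1 cell line, and no source used here says whether the libraries of a group came from separate cultures, so p-values measure only the spread between these libraries, which may be technical. Growth in a gel and the selection of the cells that survive there came together in the TRCs and cannot be told apart.

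The integrated stress response joins several sensors of trouble in a cell to 1 output. Kinases that sense misfolded protein in the endoplasmic reticulum, uncharged tRNA, double-stranded RNA or lack of heme phosphorylate the translation factor eIF2 on its alpha subunit. Most translation then slows, while a few mRNAs with short open reading frames ahead of the coding sequence, *Atf4* above all, are translated more. ATF4 protein pairs with C/EBP proteins at composite DNA elements and switches on genes of amino acid supply, redox balance and, when stress lasts, cell death. Since much of this control acts on translation and on the protein, mRNA levels cover only part of the pathway. In melanoma cells the pathway is known for its part in survival under nutrient shortage and in the switch between growth and invasion.

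The sequences that set *Atf4* apart from most genes lie in its 5′ untranslated region, so upstream start codons were counted in GENCODE M21 transcripts on GRCm38. For each gene 1 transcript was used, chosen by its APPRIS tag for the principal form and then by greatest length. The counts and frames hold for that transcript, and other transcripts of a gene may differ. *Atf4* held 3 upstream ATGs in a 5′ untranslated region of 594 bases, *Atf5* 2 in 373 bases, *Ddit3* 2 in 186 bases and *Ppp1r15a* 7 in 764 bases. *Asns*, *Cebpg* and *Nupr1* held 1 each, and *Trib3*, *Chac1* and *Cebpb* none. Of the 10819 genes tested that have an annotated 5′ untranslated region, 52.4% held at least 1 upstream ATG and 29.8% at least 2. In *Atf4*, *Atf5* and *Ppp1r15a* the last upstream reading frame ran out of frame past the start of the coding sequence, an arrangement found in 16.6% of those genes. It ran 83 bases into the coding sequence in *Atf4*, 56 in *Atf5* and 76 in *Ppp1r15a*. The upstream start codons of these overlapping frames stand in capitals, each with 9 bases on either side. They are shown beside the short frames of *Atf4* and *Atf5* and the frame of *Ddit3*, which end before the coding sequence. Both upstream ATGs of *Ddit3* lie in that 1 frame and share its stop codon. Both short frames end after 3 codons, and their stop codon closes the stretch shown.
*Atf4*, short frame, chr15:80255573-80255593, plus strand: gcggccaccATGgcgtattag
*Atf4*, overlapping frame of 59 codons, read across an exon junction: gcctaagccATGgcgctcttc
*Atf5*, short frame, chr7:44816526-44816546, minus strand: gcccgcgcaATGgctctgtag
*Atf5*, overlapping frame of 58 codons, read across an exon junction: ttcgccgccATGgagtcctcc
*Ppp1r15a*, overlapping frame of 50 codons, chr7:45525448-45525468, minus strand: tttgttaccATGactcagtgc
*Ddit3*, frame of 34 codons, chr10:127290820-127290840, plus strand: gattatatcATGttgaagatg

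Promoter windows from RefSeq on GRCm38.p6, running from 250 bases before to 50 after each annotated start, were searched on both strands for the core of the C/EBP-ATF element to which ATF4 binds. The core TGATGCAA was found for 2 of the 10 genes, *Chac1* and *Nupr1*, and in 1.03% of the 27025 genes with a window. The looser form TGATGNAA, which includes the core, was found for 4 of the 10, adding *Asns* and *Trib3*, and in 4.51% of all genes. A match describes letters only, and a gene without one may hold its element elsewhere. Capitals mark each match, written in the direction of the gene. The match began 193 bases before the start of *Chac1*, 110 before that of *Nupr1* and 23 before that of *Asns*, and 15 bases after that of *Trib3*. By the GENCODE annotation the *Chac1* and *Trib3* matches lay upstream of the gene, and those of *Asns* and *Nupr1* inside its annotated span, which starts farther upstream.
*Chac1*, chr2:119351023-119351082, plus strand: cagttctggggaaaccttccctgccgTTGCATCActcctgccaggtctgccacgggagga
*Nupr1*, chr7:126625563-126625590, minus strand: aagggccagaTTGCATCAgacagggctt
*Asns*, chr6:7693215-7693242, minus strand: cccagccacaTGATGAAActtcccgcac
*Trib3*, chr2:152344029-152344056, minus strand: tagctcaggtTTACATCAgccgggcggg

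Between 35948295 and 43511554 counts fell on genes per library, so that 3 counts, the limit that a count of 0 allows, equal 0.0675 to 0.0850 CPM, the usual unit of counts scaled to library size. CPM values are scaled by TMM factors, which were between 0.957 and 1.04. These limits, and the counting intervals given for folds, hold counting error alone. The 7 melanocyte markers were all present, with a summed level of 15712 to 26669 CPM. Summed markers of other cell types were low in every library, at 1.64 to 4.16 CPM for leukocytes with *Ptprc* at 0, and at 0.048 to 0.198 CPM for endothelial, 0.453 to 1.83 CPM for epithelial and 3.12 to 11.4 CPM for fibroblast markers. In bulk RNA, fewer cells using a gene and less of its RNA per cell cannot be told apart. The common biological coefficient of variation was 21.2%.

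For 9 of the 10 stress response genes the levels in TRCs and parental cells overlapped, as they did for 4529 of the 11483 genes tested. All 10 had a lower fitted level in TRCs. Their log2 fold changes had a median of -0.70 against 0.003 over all genes tested, where 49.7% of genes lay below 0. Of the 10, 2 were downregulated at FDR under 0.05, *Atf5* and *Cebpb*, and none was upregulated. By this rule 7.05% of all genes tested were downregulated and 8.81% upregulated. What stood out was the difference between the parental libraries. Parental replicate 1 had the highest level of the 4 libraries for 10 of 10 genes, which held for 18.9% of all genes tested, and parental replicate 3 had the lowest for 6 of the 10. Both TRC libraries lay between the control libraries for these 6 genes, *Ddit3*, *Chac1*, *Asns*, *Cebpg*, *Nupr1* and *Ppp1r15a*. The share of all genes tested with this order was not counted. *Cebpb* was the only one of the 10 for which both TRC libraries lay below both control libraries, an arrangement found for 30.4% of all genes tested.

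**Figure D1:**
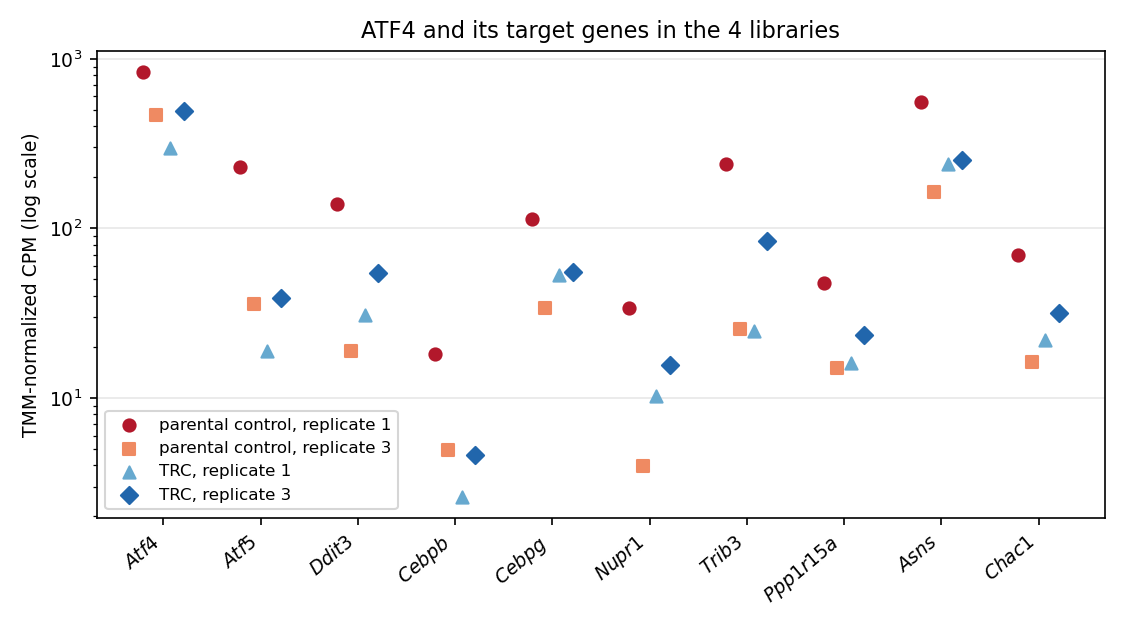
Level of each of the 10 stress response genes in the 4 libraries, in TMM-scaled CPM on a log axis, with 1 point per library. The point of parental replicate 1 is the highest for every gene, at 837 CPM for *Atf4* and 18.2 CPM for *Cebpb*.

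*Atf4* encodes the transcription factor at the centre of the response and lies on chromosome 15 from 80255184 to 80257541 on the plus strand of GRCm38. Its level was 837 CPM in parental replicate 1 and 465 in replicate 3, against 299 and 492 in TRC replicates 1 and 3. The lower control library and the higher TRC library were thus nearly level, and the groups overlapped. The log2 fold change was -0.72 with a standard error of 0.32, and the FDR of edgeR's exact test was 0.110. *Atf5*, on chromosome 7 from 44812256 to 44816658 on the minus strand, encodes a related factor whose mRNA carries a like pair of upstream frames. It was found at 230 CPM in parental replicate 1, but at 35.9 in parental replicate 3, 19.0 in TRC replicate 1 and 38.7 in TRC replicate 3. One control library stood far above the other 3, and parental replicate 3 lay between the TRC libraries. The exact test called *Atf5* downregulated in TRCs with a log2 fold change of -2.21, a standard error of 1.16 and an FDR of 0.00492. Without parental replicate 1 its log2 fold change was -0.32 and the call was lost.

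The partners of ATF4 belong to the C/EBP family. *Cebpb*, on chromosome 2 from 167688915 to 167690418 on the plus strand, encodes a factor of inflammation and differentiation that can pair with ATF4. Its levels were 18.2 CPM and 4.96 CPM in parental replicates 1 and 3, and 2.62 CPM and 4.59 CPM in TRC replicates 1 and 3. The groups did not overlap, but parental replicate 3 exceeded TRC replicate 3 only narrowly. *Cebpb* was downregulated in TRCs by the exact test, with a log2 fold change of -1.68, a standard error of 0.57 and an FDR of 0.0290. Its log2 fold change was -0.46 without parental replicate 1, and the call was lost. *Cebpg*, on chromosome 7 from 35046422 to 35056573 on the minus strand, encodes the family member that forms dimers with ATF4 at amino acid genes. It was found at 114 CPM in parental replicate 1 and 33.7 CPM in parental replicate 3, against 53.0 CPM and 55.1 CPM in TRC replicates 1 and 3. The TRC libraries were close to each other and lay between the control libraries. For *Cebpg* the log2 fold change was -0.45, with a standard error of 0.43 and an FDR of 0.505.

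*Ddit3*, on chromosome 10 from 127290774 to 127296288 on the plus strand, encodes CHOP, which drives the death arm of the response. Its level in parental replicate 1 was 139 CPM and in parental replicate 3 it was 18.8 CPM, while TRC replicates 1 and 3 had 31.0 CPM and 54.8 CPM. The control libraries were the highest and the lowest of the 4. With a log2 fold change of -0.88, a standard error of 1.26 and an FDR of 0.356, *Ddit3* did not pass the test. *Nupr1*, on chromosome 7 from 126623249 to 126630861 on the minus strand, encodes a small stress-induced chromatin protein. It showed the same order, with 34.1 CPM in parental replicate 1, 15.7 in TRC replicate 3, 10.3 in TRC replicate 1 and 3.97 in the other control library. Its standard error of 1.3 was larger than its log2 fold change of -0.55, and the FDR was 0.646.

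The feedback arm of the pathway was represented by *Trib3* and *Ppp1r15a*. *Trib3*, on chromosome 2 from 152337422 to 152344032 on the minus strand, encodes a pseudokinase that restrains ATF4 and CHOP. Its level was 239 CPM in parental replicate 1, 25.4 in parental replicate 3 and 24.9 and 84.2 in TRC replicates 1 and 3. Parental replicate 3 and TRC replicate 1 were thus alike, and both groups spread widely. The log2 fold change of *Trib3* was -1.28, with a standard error of 1.40 and an FDR of 0.244. *Ppp1r15a*, on chromosome 7 from 45522916 to 45526268 on the minus strand, encodes GADD34, which brings the phosphatase back to eIF2. It was found at 47.7 CPM and 14.9 CPM in parental replicates 1 and 3 and at 16.2 CPM and 23.6 CPM in TRC replicates 1 and 3. Both TRC libraries lay between the control libraries, nearer to replicate 3. Its log2 fold change was -0.66, with a standard error of 0.46 and an FDR of 0.335.

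The metabolic targets were *Asns* and *Chac1*. *Asns*, on chromosome 6 from 7675169 to 7693254 on the minus strand, encodes asparagine synthetase. Its level was 559 CPM in parental replicate 1, 164 in parental replicate 3 and 239 and 252 in TRC replicates 1 and 3. The TRC libraries differed little, while the control libraries enclosed them on both sides. With a log2 fold change of -0.56, a standard error of 0.78 and an FDR of 0.397, *Asns* did not pass the test. *Chac1*, on chromosome 2 from 119351229 to 119354381 on the plus strand, encodes an enzyme that breaks down glutathione. It was found at 69.7 CPM in parental replicate 1 and 16.4 CPM in parental replicate 3, and at 22 CPM and 31.9 CPM in TRC replicates 1 and 3. For *Chac1* the log2 fold change was -0.68, with a standard error of 0.93 and an FDR of 0.377.

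The direction of the comparison depended on which control library it used. Against parental replicate 1 alone, all 10 genes were downregulated at FDR under 0.05, and their median on the log2 scale was -1.38. By the same fit 3.16% of all genes tested were downregulated. The smallest changes were those of *Atf4* and *Cebpg*, both at -1.08, and the largest was that of *Atf5*, at -3.00. Against parental replicate 3 alone, 7 of the 10 had a higher fitted level in TRCs, and the median on the log2 scale was 0.63. Here 2 of them were upregulated, *Ddit3* with a log2 fold change of 1.19 and an FDR of 0.0194, and *Nupr1* with 1.71 and an FDR of 0.00966. Upregulated genes made up 9.39% and downregulated genes 7.44% of all genes tested in that fit. *Atf4*, *Atf5* and *Cebpb* kept a negative log2 fold change, at -0.23, -0.32 and -0.46, and none of the 3 passed the test. A fit on 3 libraries leaves 1 library alone in its group and takes it to vary as the other group does. Without TRC replicate 1, 0 of the 10 were called by the exact test, with an unadjusted p under 0.05 for 1 of them, and 2.34% of all genes were downregulated. Without TRC replicate 3, *Atf5* alone among the 10 was called, with an FDR of 0.0186, where 2.36% of all genes were downregulated.

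**Figure D2:**
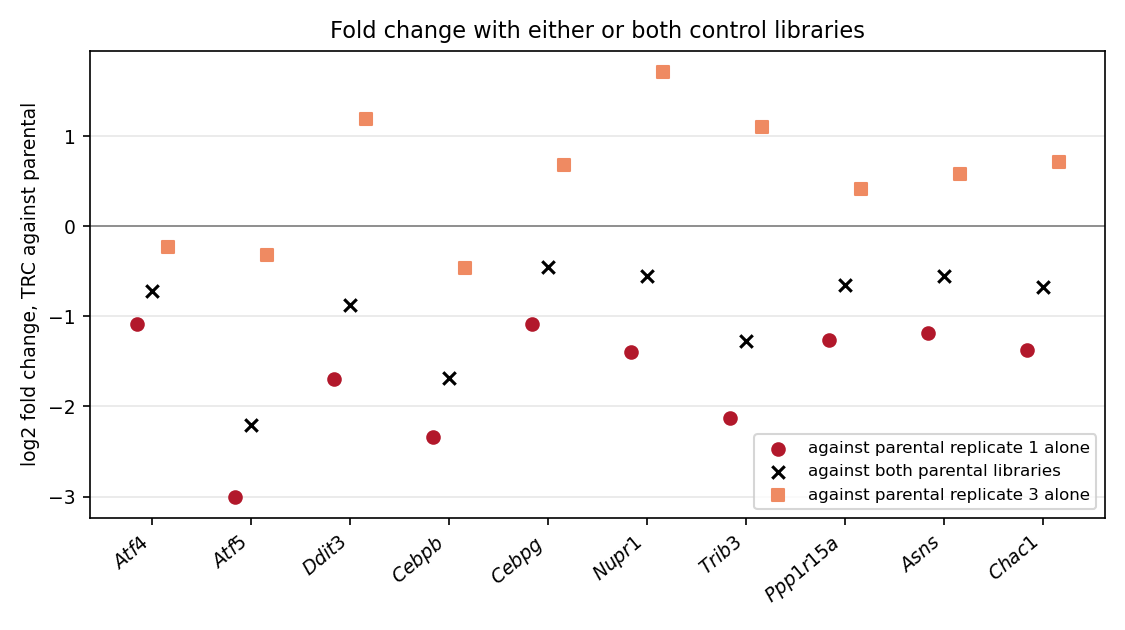
Log2 fold change of TRCs against parental cells for each of the 10 genes, fitted with both control libraries and with each control library alone. Against parental replicate 1 every point lies below 0, down to -3.00 for *Atf5*, and against parental replicate 3 there are 7 points above 0, up to 1.71 for *Nupr1*.

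The spread between the control libraries was described with no test, since a pair of libraries has no replicate check. Parental replicate 1 was at least 2-fold above parental replicate 3 for 9 of the 10 genes, a gap found for 4.99% of all genes tested. The exception was *Atf4*, at 1.8-fold with a 95% counting interval of 1.77 to 1.83. *Trib3* differed most, at 9.44-fold with an interval of 8.81 to 10.1, followed by *Nupr1* at 8.59-fold (7.22 to 10.3), *Ddit3* at 7.38-fold (6.81 to 8.0) and *Atf5* at 6.42-fold (6.05 to 6.81). The genes of smaller gaps were *Cebpb* at 3.67-fold, *Asns* at 3.41-fold, *Cebpg* at 3.39-fold and *Ppp1r15a* at 3.19-fold, with *Chac1* between these sets. The gaps thus exceeded counting error for all 10. On the scale of log2(CPM + 0.5), the control libraries differed by a median of 1.92 for the 10 genes, against a median absolute difference of 0.248 over all genes tested. The factor gene itself differed less than each of the other 9, at 0.85 on this scale.

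The TRC libraries differed in the other order of replicate number and by less. TRC replicate 3 exceeded TRC replicate 1 for 10 of 10 genes, which held for 50.1% of all genes tested. The log2 difference of TRC replicate 1 from replicate 3 had a median of -0.65 and ran from -0.055 for *Cebpg* to -1.73 for *Trib3*. *Trib3* was the most variable of the 10 in both groups, while *Asns* and *Cebpg* were nearly level between the TRC libraries and differed more than 3-fold between the controls. Alignments that were not unique made up 15.2% of parental replicate 1, 17.1% of parental replicate 3, 18.3% of TRC replicate 1 and 25.2% of TRC replicate 3, and their part in these differences was not tested. The summed melanocyte markers were 18915 CPM and 15712 CPM in parental replicates 1 and 3 and 23969 CPM and 26669 CPM in the TRC replicates, and the summed fibroblast markers were 11.4 CPM and 9.83 CPM against 5.80 CPM and 3.12 CPM. Both sums thus separated the groups, but not every marker did. Levels overlapped between the groups for 5 of the 7 melanocyte markers and 2 of the 3 fibroblast markers tested, as for 4529 of all 11483 genes tested. The part of these markers in the values of the stress response genes was not tested.

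Of the 10 genes, 5 share ground with a gene on the opposite strand, and the strand setting of the counting was not given in the sources used here. These are *Atf5*, *Ddit3*, *Cebpb*, *Cebpg* and *Ppp1r15a*, and without strand their reads could not be told apart from those of the partner. *Mars*, which overlaps *Ddit3*, had 128 CPM and 113 CPM in parental replicates 1 and 3 and 101 CPM and 102 CPM in TRC replicates 1 and 3. *Tmem189*, which overlaps *Cebpb*, had 121, 148, 105 and 143 CPM in the same order of libraries. Neither gene showed the gap between the control libraries seen in its stress response partner. *Il4i1*, which overlaps *Atf5*, had 1.46, 0.54, 2.43 and 2.33 CPM in that order of libraries. *Tulp2*, which overlaps *Ppp1r15a*, had 1.75, 0.51, 1.44 and 2.07 CPM. Both stayed under 3 CPM in every library, but both were higher in parental replicate 1 than in parental replicate 3. The part of shared reads in these values was not tested. *Nup62*, also opposite *Atf5*, and *Gm45095*, opposite *Cebpg*, were not matched to the listed identifiers, and their levels were not analysed here.

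Levels between genes were compared as CPM per kilobase of annotated exon. In parental cells the mean was 276 for *Atf4*, 132 for *Asns*, 66.8 for *Atf5*, 62.3 for *Trib3*, 46.0 for *Ddit3* and 26.3 for *Chac1*. *Cebpg*, *Ppp1r15a*, *Cebpb* and *Nupr1* followed between 13.2 and 7.57 CPM per kilobase. The ranges of neighbours in this order overlapped throughout, so the gaps between adjacent genes lay within the spread between the control libraries. In TRCs *Atf4* and *Asns* again led, at 168 and 89.8 CPM per kilobase, and their ranges did not overlap each other or that of the next gene. *Trib3*, *Ddit3*, *Chac1* and *Atf5* followed, each with a range that overlapped that of the next, *Atf5* at 14.5 CPM per kilobase, and *Cebpb* was last at 2.40.

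**Figure D3:**
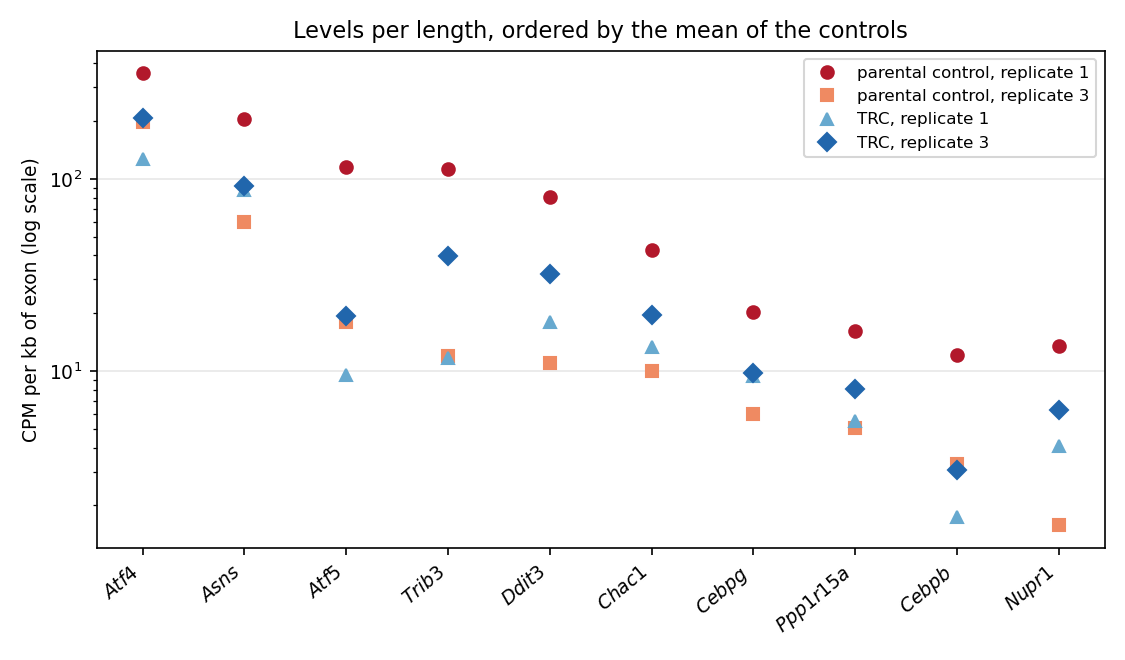
Level of the 10 genes per kilobase of annotated exon in each library, in CPM per kilobase on a log axis, ordered by the mean of the parental libraries. *Atf4* and *Asns* lead, at control means of 276 and 132 CPM per kilobase, and for every gene the control libraries lie apart.

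Upstream of ATF4, the genes of the eIF2 kinases and of eIF2 itself lacked the gap between control libraries. Of 9 kinase and activator genes, 1 was upregulated in TRCs and 1 downregulated, near the shares of 8.81% and 7.05% over all genes tested. *Eif2ak3*, which encodes the endoplasmic reticulum kinase PERK, had 70.3 CPM and 79.4 CPM in parental replicates 1 and 3 and 150 CPM and 117 CPM in TRC replicates 1 and 3, with a log2 fold change of 0.83 and an FDR of 0.00567. *Impact*, whose product holds back the amino acid sensor GCN2, was downregulated with a log2 fold change of -1.01 and an FDR of 0.00066. Parental replicate 1 exceeded replicate 3 for 2 of these 9 genes, and for none of them by 2-fold. Among 11 genes of eIF2, its exchange factor eIF2B and the phosphatase that were tested, 3 were downregulated and none upregulated. These were *Eif2s1*, the alpha subunit that the kinases phosphorylate, at -0.74 on the log2 scale, and the eIF2B subunit genes *Eif2b3* at -0.90 and *Eif2b1* at -0.75. The quasi-likelihood test called 1 of the 11, where it called 1054 of all 11483 genes tested. When replicate number was taken into account it called 0 of the 11 and 785 of all genes tested. Parental replicate 1 exceeded replicate 3 for 3 of the 11, again for none by 2-fold. The phosphatase gene *Ppp1ca* was listed at 0 in every library and was not tested. The reason for this 0 was not examined, so it does not show that the RNA was absent. Against parental replicates 1 and 3 alone, the median log2 fold change was 0.18 and 0.11 for the kinase and activator genes. For the eIF2 list it was -0.32 and -0.37. The calls of *Eif2s1* and *Eif2b1* were lost against parental replicate 1 alone, and that of *Eif2b3* against parental replicate 3 alone. With either TRC library left out, the exact test called none of the eIF2 genes. The call of *Eif2ak3* was lost without TRC replicate 1 or without parental replicate 1, and that of *Impact* without TRC replicate 3. Without TRC replicates 1 and 3 in turn, the log2 fold change was 0.63 and 0.99 for *Eif2ak3* and -1.15 and -0.89 for *Impact*.

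Downstream, the 3 lists of amino acid genes held downregulated genes and none that was upregulated. Of 13 genes of amino acid synthesis, 4 were downregulated and none upregulated, with a median log2 fold change of -0.55, where 7.05% of all genes tested were downregulated. They were *Phgdh*, the first enzyme of serine synthesis, at -0.997, *Shmt2*, which passes carbon from serine to folate, at -1.17, *Cth* of cysteine synthesis at -1.33 and *Bcat1* of branched-chain amino acid metabolism at -0.73. Of 9 amino acid transporter genes tested, 3 were downregulated. *Slc7a11*, the cystine transporter, showed the largest change of the list, with 330 CPM and 182 CPM in parental replicates 1 and 3 and 10.3 CPM and 33.7 CPM in TRC replicates 1 and 3, a log2 fold change of -3.54. *Slc7a1* for cationic and *Slc38a2* for neutral amino acids were the other genes called, at -0.95 and -0.79. Among the synthesis and transporter genes called, *Cth*, *Bcat1*, *Slc7a1* and *Slc38a2* each lost the call when at least 1 of the libraries was left out. *Bcat1* and *Slc38a2* also lost it in the quasi-likelihood test. Of 14 genes of tRNA charging and export, 5 were downregulated, among them *Vars* at -0.90, *Eprs* and the tRNA exporter gene *Xpot* both at -0.86, and *Lars* at -0.80. Parental replicate 1 exceeded replicate 3 for 14 of these 14 genes, with a median log2 difference of 0.74, and for 12 of the 13 synthesis genes, against 49.6% of all genes tested. Against parental replicate 1 alone, 8 of the 14 tRNA charging genes, 7 of the synthesis genes and 4 of the transporter genes were downregulated, against 3.16% of all genes tested. Against parental replicate 3 alone, these counts were 1, 2 and 3, against 7.44%, and 2 synthesis genes were upregulated. Without TRC replicates 1 and 3 in turn, the median log2 fold change of the 14 tRNA charging genes was -0.46 and -0.86. All calls among them were lost without TRC replicate 1, and those of *Eprs*, *Xpot* and *Lars* also without TRC replicate 3. The quasi-likelihood test called 1 of the 14, where it called 1054 of all 11483 genes tested.

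Other stress genes took different directions in TRCs. *Atf3*, a factor induced together with CHOP, resembled *Atf5*, with 26.8 CPM in parental replicate 1 and between 4.45 and 6.68 CPM in the other 3 libraries. Of 13 other bZIP factor genes tested it alone was called, as downregulated, where 7.05% of all genes tested were downregulated. Its log2 fold change was -1.57 with an FDR of 0.0420 by the exact test, although the groups overlapped. The call was lost against parental replicate 3 alone, where the log2 fold change was -0.15, and when either TRC library was left out. Of 15 further ATF4 targets tested, out of 20 listed, 4 were upregulated and 1 downregulated, against 8.81% and 7.05% of all genes tested. By the quasi-likelihood test 3 were upregulated, and 2 when replicate number was taken into account, with 1 downregulated each time. The median log2 fold change of the 15 was 0.30, and it was 0.37 and 0.45 against parental replicates 1 and 3 alone. *Ero1a*, the oxidase of disulfide formation, which hypoxia also induces, rose from 429 CPM and 242 CPM in parental replicates 1 and 3 to 2041 CPM and 4024 CPM in TRC replicates 1 and 3, a log2 fold change of 3.18. *Trib2*, a relative of *Trib3*, rose by 2.47 and *Ddit4*, an inhibitor of mTORC1 that hypoxia also induces, by 1.91. *Sqstm1*, the autophagy receptor gene, was downregulated by -1.18 with close values within each group.

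The chaperone genes of the other unfolded protein response arms, ATF6 and XBP1, went the opposite way between the control libraries. Parental replicate 1 lay below replicate 3 for 14 of 15 of them, as for 5791 of all 11483 genes tested. The median log2 difference was -0.65, against -0.004 over all genes tested. It was at least 2-fold below for 3 of the 15, as for 99 of all 11483 genes tested. *Hspa5*, which encodes the chaperone BiP, lay at the low end of the list, whose log2 differences ran from -1.23 to 0.019. *Hspa5* had 709 CPM in parental replicate 1 and 1670 CPM in parental replicate 3, with 975 CPM and 1218 CPM in TRC replicates 1 and 3. Its TRC libraries lay between the control libraries, as they did for *Ddit3*, but with the control libraries exchanged. Between the groups, 1 of the 15 genes was called, *Edem1* of protein disposal, upregulated with a log2 fold change of 0.63 and an FDR of 0.0459, where 8.81% of all genes were upregulated. This call was lost when any 1 library was left out, at an FDR of 0.0723 to 0.260 in the exact test, and in the quasi-likelihood test. The promoter windows of these lists differed too. The endoplasmic reticulum stress element, CCAAT and CCACG with 9 bases of any kind between them, was present for 7 of 13 chaperone genes with a window, for 0 of the 10 stress response genes and for 0.137% of all genes, while the core TGATGCAA was present for 0 of the 13 and for 4 of 8 tRNA charging genes.

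**Figure D4:**
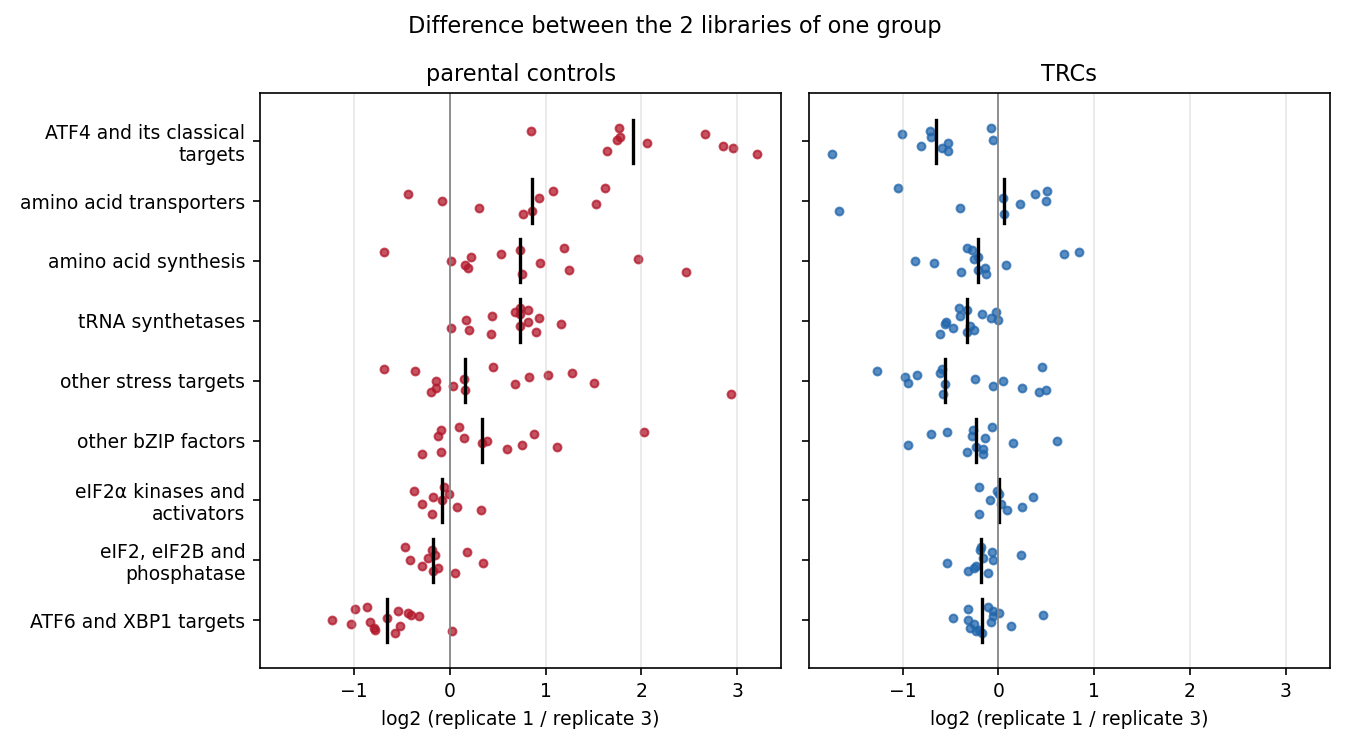
Difference between replicates 1 and 3 in log2(CPM + 0.5) for the genes of each list, for the parental libraries on the left and the TRC libraries on the right. Each point is 1 gene, with a black bar at the median. Between the parental libraries the 10 stress response genes lie highest, with a median of 1.92, the tRNA charging genes at 0.74, and the ATF6 and XBP1 targets lowest at -0.65.

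Across the 4 libraries, the gene whose level most resembled that of *Atf4* was *Sesn2*, an ATF4 target that restrains mTORC1. Its level was 58.4 CPM and 36.1 CPM in parental replicates 1 and 3 and 25.5 CPM and 37.9 CPM in TRC replicates 1 and 3, with a Pearson correlation of 0.9999 in log2(CPM + 0.5). The next genes with at least 10 CPM were *Fyn*, *Lgals1* and *Edc3*. With 4 points, such values rank genes and show nothing more. Among the other 9 stress response genes, *Cebpb* and *Atf5* followed *Atf4* most closely, at 0.971 and 0.967, and *Nupr1* least, at 0.624. The order of the libraries rests on the same 4 values and is no separate observation. Parental replicate 3 lay above TRC replicate 1 for *Atf4*, *Atf5*, *Trib3* and *Cebpb* and below it for the other 6. For *Trib3* these libraries were nearly level, at 25.4 CPM and 24.9 CPM. Its correlation of 0.888 was close to the 0.876 of *Ppp1r15a*, which fell on the other side.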

How the data were processed

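Per the labels and the study's methods, polyA RNA was sequenced from stranded TruSeq libraries. The authors demultiplexed with CASAVA 1.8.2, trimmed with Trimmomatic 0.35, aligned to GRCm38 with TopHat2 2.1.0, Bowtie2 2.2.6 and SAMtools 1.3, and counted with HTSeq. The authors deposited these counts for each Ensembl gene without normalization. The mode and strand setting were not given in the sources used here. Groups and replicate numbers came from the labels.

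Totals that are no gene were removed, and genes under 1 CPM in at least 3 of the 4 libraries were dropped, leaving 11483 of 39179. TMM scaling, tagwise dispersions and the exact test of edgeR 4.0.16 in R 4.3.3 followed, two-sided, with Benjamini-Hochberg adjustment over all genes tested and FDR under 0.05 as the threshold. Standard errors came from DESeq2 1.42.0. No test was made on single values, since an exact permutation test of 2 against 2 libraries cannot go below 0.333. Differences between libraries used CPM plus 0.5. Symbols and positions came from GENCODE M21 (37693 identifiers matched), promoter sequence from RefSeq on GRCm38.p6, where all 10 genes matched. Counting intervals of folds are exact 95% Clopper-Pearson intervals on the split of counts between libraries.

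The members and lists were chosen with earlier results of these data known. All 10 stress response genes are named. From every other list the text names at most 4 genes, those of lowest FDR under 0.05, and of the 5 genes most like *Atf4*, those with a mean of at least 10 CPM. *Hspa5*, *Mars*, *Tmem189*, *Il4i1*, *Tulp2*, *Nup62*, *Gm45095* and *Ppp1ca* were added after their values were seen. Alternatives were other filters, scalings, dispersions and tests, and each library left out. The scripts were tested on simulated data.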

Additional observations from a re-analysis of the deposited data

How the results depend on the processing

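The directions of all 10 stress response genes and the calls of *Atf5* and *Cebpb* held with a stricter filter or none, with scaling by library size only or by DESeq2 size factors, with dispersions drawn toward a trend and, added after seeing the data, tagwise dispersions with no trend. With DESeq2's Wald test 1 of the 10 was called, *Cebpb*, against 2 by the exact test, and the FDR of *Atf5* was 0.184. The quasi-likelihood test of edgeR without a replicate block called 1054 genes, against 1822, and 0 of the 10, with unadjusted p under 0.05 for 2 of them. With the replicate block it called 785 genes and 0 of the 10, with unadjusted p under 0.05 for 0 of them, and the log2 fold change of *Nupr1* was 0.083, against -0.55 in the exact test. The labels do not say that a replicate number marks a shared culture or day, and no pairing was visible in the deviations of same-numbered libraries, which correlated at 0.0267 across 11483 genes. Leaving out each library in turn gave 773 to 1932 genes called and 0 to 10 of the stress response genes called. The log2 fold change then ran from -1.13 to -0.23 for *Atf4*, from -3.00 to -0.32 for *Atf5*, from -1.69 to 1.19 for *Ddit3*, from -2.42 to 1.11 for *Trib3*, from -1.37 to 0.72 for *Chac1*, from -1.19 to 0.58 for *Asns*, from -2.33 to -0.46 for *Cebpb*, from -1.08 to 0.68 for *Cebpg*, from -1.39 to 1.71 for *Nupr1* and from -1.26 to 0.41 for *Ppp1r15a*. The 7 reversals in these ranges arose without parental replicate 1. The cause was not tested. The lowest level among the 10 genes, that of *Cebpb* in TRC replicate 1, was 2.62 CPM, where 3 counts equal 0.0722 CPM.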
